A study of Mus musculus with 2 samples.

Results

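The genes described here encode receptors through which growth factors reach blood-forming cells: Kit, Flt3, Epor, Csf1r, Csf2ra, Csf2rb, Csf2rb2, Csf3r and Il7r. They were chosen by name, as 9 of the 32285 genes in the deposited count matrices, and all 9 were found there. Single-cell RNA was counted in LSK cells, the marrow fraction without mature lineage markers that carries Sca1 and much Kit, home of stem cells and multipotent progenitors. Donors were young wild-type mice (WT) and young mice named IκB– in the labels and IkBKO in the cell table. Neither source states the altered IκB gene or genes, the cells affected, or the kind of change. Each of 2 droplet libraries, replicates 1 and 2, held both genotypes, marked by hashing antibodies. How many mice made up each of the 4 pools (genotype by library) is not stated, so a p-value here covers only the spread among these 4 pools.

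Blood progenitors live and divide in response to growth factors, and which receptors a cell makes changes with its lineage. Kit and Flt3 are receptor tyrosine kinases for stem cell factor and Flt3 ligand and mark stem cells and lymphoid-primed progenitors. Csf1r is the related kinase of the monocyte lineage. Epor, Csf3r, Il7r and the Csf2 chains carry no kinase of their own and signal through JAK kinases and STAT factors. Epor serves erythroid cells, Csf3r neutrophils and Il7r lymphoid cells. Csf2ra with the shared beta chain Csf2rb binds GM-CSF. Mice also have a near copy, Csf2rb2, that pairs with the IL-3 alpha chain. Because Kit was a sort marker, its level here is that of cells already selected for Kit protein.

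Replicate 1 gave 3721 WT and 3962 IkBKO cells, and replicate 2 gave 4963 and 5383. Their UMIs (distinct RNA molecules) totalled 43674115 and 62834572, then 42165571 and 61278938. IkBKO cells were deeper, with medians of 13709 and 9641 UMIs against 9963 and 6983. The replicates were of different sex by Xist, at 1758 and 1267 CPM (CPM is a gene's count scaled to the total of its pool) in replicate 1 and under 1 CPM in replicate 2. The sort markers Kit and Ly6a (Sca1) were present in all 4 pools, and Cd3e, Ms4a1 and Ly6g, markers of mature T cells, B cells and neutrophils, lay between 0.114 and 1.21 CPM. Of the IκB genes, Nfkbib stood at 19.2 and 16.1 CPM for WT against 6.64 and 7.93 CPM for IkBKO cells, and Nfkbie at 9.11 and 12.1 against 2.04 and 1.97 CPM, while Nfkbia stood at 47.7 and 76 against 42.6 and 59.7 CPM. The libraries shared 39 barcodes among 17990 distinct ones.

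The cells were divided by 5 gates on the raw UMIs of lineage genes: Mecom (at least 1 UMI), a stem cell factor; Dntt (at least 3), a lymphoid-priming enzyme; Mpo (at least 20), a granule enzyme of myeloid progenitors; Pf4 (at least 3), a platelet chemokine; and Car1 (at least 5), an erythroid carbonic anhydrase. The replicates stood apart in them. The Mpo gate held 9.11% of WT and 37.2% of IkBKO cells in replicate 1 but 0.806% and 9.47% in replicate 2, where the WT pool had only 40 such cells. The Car1 gate held 1.4% and 6.39% in replicate 1 and 0.181% (9 cells) and 4.16% in replicate 2. The Pf4 gate held 3.04% of WT and 6.66% of IkBKO cells in replicate 1 and 3.95% and 10.9% in replicate 2, and the Dntt gate 20.1% and 6.66% and then 19.4% and 9.79%. Gates overlap, and 5.24% to 9.1% of cells lay in several. Within a gate, the share of cells also in another ran from 5.14% (Car1 gate, IkBKO replicate 1) to 51.5% (Pf4 gate, WT replicate 2). It was 28.2% and 26.7% of IkBKO Mecom-gated cells. Of the lineage marker lists over all LSK cells, 5 of 8 stem cell and 5 of 8 lymphoid-primed genes were called lower and 6 of 8 myeloid-primed genes higher. Among marker lists of other cell types over all LSK cells, 2 of 8 for T and NK cells were called higher and 1 lower, and 5 of 8 for mast cells were higher. Of the others, 2 of 7 for mature erythroid cells were lower, and 0 of 8 for B cells and 0 of 3 tested for stroma were called by edgeR. Summed B cell markers nevertheless stood at 648 CPM in IkBKO replicate 2, against 163 to 192 CPM in the other pools.

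Over all LSK cells, 5 of the 9 receptor genes passed the test (edgeR's quasi-likelihood test with the library as a block, Benjamini-Hochberg adjusted p of at most 0.05), against 13.3% of the 14742 genes tested. Csf1r, Csf2rb and Csf2rb2 were higher in IkBKO cells (7.13% of all genes were) and Kit and Flt3 were lower (6.19%), while Epor, Csf2ra, Csf3r and Il7r did not pass. The median log2 fold change of the 9 genes was 0.09, beside -0.01 over all genes. DESeq2 called 7 of the 9, as did edgeR on thinned cells, and the same edgeR fit without the block called 0. The 13.3% belongs to the main fit only, and the shares of all genes called under the other settings are not given here. Leaving out the pool of WT replicate 1 gave 2 calls (Csf2rb2 and Epor) and leaving out any other pool gave 0, in fits that carry no block. In pooled cells, fewer cells of a type and less RNA per cell cannot be told apart. Each gene is given below within the gates as well, but a gate is also a pool and has the same limit. In the Mecom gate, for example, myeloid-primed markers summed to 1470 and 478 CPM for WT against 3615 and 1573 CPM for IkBKO.

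**Figure D1:**
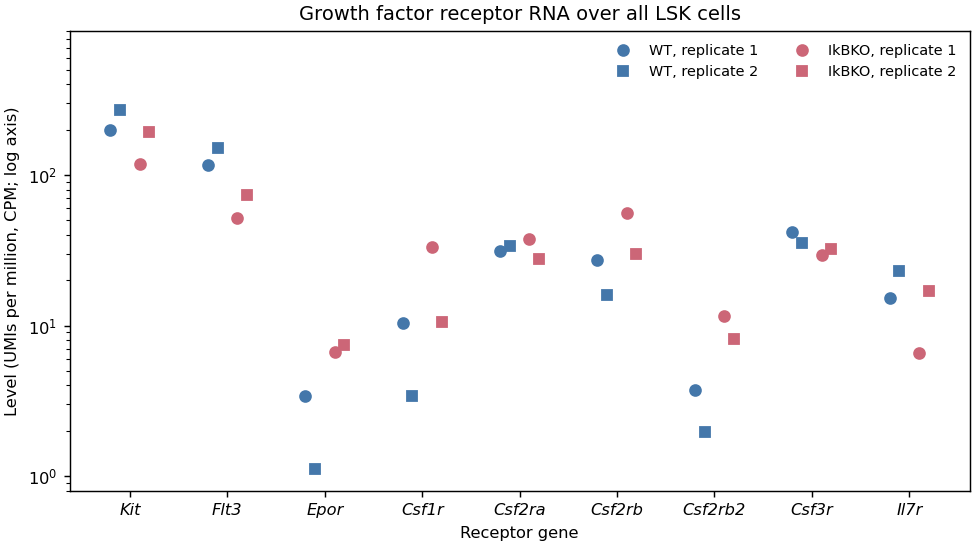
Levels of the 9 receptor genes over all LSK cells in CPM on a log axis; each point is 1 pool, blue for WT and red for IkBKO, circles for replicate 1 and squares for replicate 2. The red points lie under the blue ones for Kit and Flt3 and over them for Epor, Csf1r, Csf2rb and Csf2rb2, while the colours overlap for Csf2ra and Il7r.

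The sequence before the start site is shown for 3 receptors whose patterns contrast, Flt3 (lower), Csf2rb2 (higher) and Epor (high in the Car1 gate). Sequences are the 250 bases before the RefSeq start (GRCm38.p6, 5′ to 3′ on the gene's strand, all minus here), at chr5:147400490-147400739, chr15:78305722-78305971 and chr9:21963577-21963826. Capitals mark matches, on either strand, to 6 motifs: GAGGAA, the core bound by PU.1, AGATAA for GATA factors, TTGCNNAA for C/EBP factors, TGTGGT for RUNX factors, TTCNNNGAA for STAT factors, and the κB motif.
Flt3: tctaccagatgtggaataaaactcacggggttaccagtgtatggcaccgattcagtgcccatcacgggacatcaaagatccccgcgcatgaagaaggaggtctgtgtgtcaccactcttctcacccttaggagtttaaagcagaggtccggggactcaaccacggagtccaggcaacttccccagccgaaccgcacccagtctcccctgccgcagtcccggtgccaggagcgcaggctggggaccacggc
Csf2rb2: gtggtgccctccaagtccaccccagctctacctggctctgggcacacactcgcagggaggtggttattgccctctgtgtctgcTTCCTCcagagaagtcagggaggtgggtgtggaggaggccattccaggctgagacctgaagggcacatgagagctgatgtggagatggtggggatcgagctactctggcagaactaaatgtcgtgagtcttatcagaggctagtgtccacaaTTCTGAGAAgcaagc
Epor: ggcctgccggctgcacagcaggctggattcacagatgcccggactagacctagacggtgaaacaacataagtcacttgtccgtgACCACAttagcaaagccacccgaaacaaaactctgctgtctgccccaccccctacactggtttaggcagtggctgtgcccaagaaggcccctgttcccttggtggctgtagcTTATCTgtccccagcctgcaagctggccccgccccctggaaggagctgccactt
Flt3 had no match to any of these letters in the window. Csf2rb2 had a PU.1 core from -167 to -162 and a STAT match from -15 to -7, counted in bases before the start, and Epor had a RUNX match from -166 to -161 and a GATA match from -54 to -49. Of all 32851 RefSeq windows of that length, 23.3% held the PU.1 core, 7.02% the STAT, 14% the RUNX, 9.99% the GATA, 9.56% the C/EBP and 7.25% the κB motif. Of 7 receptors with a window, Kit, Csf2ra and Csf3r also held the PU.1 core, Csf3r the κB motif, and Il7r a C/EBP and a STAT match. For Kit, Csf2ra, Csf3r and Il7r the RefSeq start lies 11 to 300 bases inside the gene bounds given below, so their windows reach into the annotated gene, and for Epor it lies 70 bases before them. A match is a description of letters and not a bound site.

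Kit (ENSMUSG00000005672, chromosome 5, 75574916 to 75656722, plus strand, mm10), the receptor of stem cell factor, measured 199 CPM (WT) and 118 CPM (IkBKO) in replicate 1, then 272 and 194 CPM in replicate 2. Both IkBKO pools lay under both WT pools, although the lowest WT and highest IkBKO pools nearly met. Kit was lower by a log2 fold change of -0.53 ± 0.09 (standard error, SE; edgeR adjusted p = 0.021), in 2 of 2 libraries. With each pool given the same mixture of gates by re-weighting, the value was -0.35 (adjusted p = 0.0095). Re-weighting scales up the cells of a gate that is rare in a pool. The scaled counts were rounded and fitted as if they were UMIs. Here and below, p-values of re-weighted fits therefore understate counting error where few cells were scaled up. In WT replicate 2, cells in the Mpo gate alone held 1.5% of UMIs and those in the Car1 gate alone 0.3%. At a fixed depth of 4000 UMIs per cell, 53% and 63.1% of WT cells and 37.7% and 52.7% of IkBKO cells had a Kit UMI, beside 78.6%, 80.9%, 73.5% and 78.4% at full depth. All these cells were sorted for Kit protein, so the shares describe detection of the RNA at this depth.

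Within gates, the fall of Kit was called in the Mecom and Dntt gates. In Mecom-gated cells Kit stood at 256 and 310 CPM for WT against 171 and 241 CPM for IkBKO (log2 fold change -0.43 ± 0.07, edgeR adjusted p = 0.003). In Dntt-gated cells it stood at 146 and 187 CPM for WT against 90.1 and 97.3 CPM for IkBKO, a clear gap, with a log2 fold change of -0.75 ± 0.09 (edgeR adjusted p = 4.6e-11). That call held under DESeq2 (adjusted p = 4.4e-04), without the block (0.035), at fixed depth, without cells of other types, in cells of 1 gate only and with the gate's threshold doubled. With 1 pool left out it held only in the fit without WT replicate 1 (adjusted p = 0.026). In the Mpo gate the libraries went opposite ways, from 130 to 84.7 CPM in replicate 1 and from 119 to 151 CPM in replicate 2. In the Pf4 gate Kit stood at 163 and 279 CPM for WT against 125 and 210 CPM for IkBKO (-0.37 ± 0.10, edgeR adjusted p = 0.057). In the Car1 gate it stood at 184 and 76.7 against 164 and 125 CPM (0.08 ± 0.18, adjusted p = 0.94). Whether the difference of Kit varied between gates was close to the threshold, with an edgeR interaction adjusted p of 0.052, and it passed (0.0053) when genes of low counts were kept in the fit.

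Flt3 (ENSMUSG00000042817, chromosome 5, 147330741 to 147400489, minus strand), the receptor whose ligand sustains lymphoid-primed and dendritic progenitors, measured 117 CPM (WT) and 51.8 CPM (IkBKO) in replicate 1, then 150 and 74 CPM in replicate 2. The groups did not overlap, and the IkBKO level was 0.443 and 0.494 of that of WT in the same library. The log2 fold change was -1.01 ± 0.08 (edgeR adjusted p = 0.0027), and -0.50 (adjusted p = 0.0024) with the mixture of gates made equal. Lymphoid-primed markers, a list that includes Flt3, moved with it: 5 of 8 were called lower, and their sum was 570 and 696 CPM for WT against 223 and 366 CPM for IkBKO; their part in the result was not tested. At fixed depth a Flt3 UMI was found in 34.4% and 40% of WT and in 18.8% and 23.3% of IkBKO cells (55.1%, 56.2%, 39.3% and 41.6% at full depth), with exact Clopper-Pearson 95% intervals of 32.9% to 36%, 38.6% to 41.5%, 17.6% to 20% and 22.1% to 24.5% for counting error. In the Car1 gate, which should lack the gene and had a median of 9960 to 23697 UMIs per cell, the share was 0 of 51 and 0 of 8 WT cells, which allows up to 5.88% and 37.5%, and 1.19% and 1.79% of IkBKO cells. At full depth these shares were 7.69%, 33.3%, 2.37% and 5.8%.

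Within gates Flt3 was called lower in the Mecom, Dntt and Pf4 gates. Mecom-gated cells had 117 and 131 CPM for WT against 60.2 and 59.7 CPM for IkBKO (log2 fold change -1.01 ± 0.08, edgeR adjusted p = 2.0e-05). Without the block it was still called (adjusted p = 0.025), and with 1 pool left out the adjusted p ranged from 0.012 to 0.055. In cells of the Mecom gate alone the value was -0.78 (edgeR adjusted p = 4.1e-05). Lymphoid-primed markers there, a list that includes Flt3, summed to 395 and 422 CPM for WT against 172 and 198 CPM for IkBKO. Stem cell markers there, a list that includes Mecom, summed to 635 and 1017 against 399 and 684 CPM. The part of either list in the Flt3 result was not tested. Dntt-gated cells, in which Flt3 was highest, had 251 and 264 CPM for WT against 222 and 181 CPM for IkBKO. The fold there was small (-0.29 ± 0.09, edgeR adjusted p = 0.024), and the call was lost under DESeq2 (0.66), with RLE scaling (0.051), at fixed depth (0.11) and without the block (0.44). In the Pf4 gate Flt3 stood at 11.9 and 63.8 CPM for WT against 7.96 and 22.0 CPM for IkBKO (-1.28 ± 0.23, edgeR adjusted p = 4.8e-04). This value rested on WT replicate 2, without which it was 0.34 (adjusted p = 1), and it was not called by DESeq2 (1), at fixed depth (0.68) or in cells of 1 gate (0.48). The interaction across gates gave an edgeR adjusted p of 0.45, or 9.6e-04 with genes of low counts kept, so the gates were not shown to differ under the filter used.

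A Flt3 antibody tag was counted in replicate 1 only, so there is 1 library per genotype and no test. The median count of the Flt3 tag was 126 (quartiles 105 and 147) in WT and 121 (101 and 141) in IkBKO cells, while Flt3 RNA stood at 117 and 51.8 CPM. Within a genotype the tag barely followed the RNA: over 3641 WT and 3921 IkBKO cells the rank correlation with Flt3 UMIs at fixed depth was 0.06 and 0.05, as a description across cells of 1 library. Over all 3721 and 3962 cells the rank correlation was 0.85 and 0.81 with the hashing tag of the other genotype, which these cells should not carry, and 0.82 in both genotypes with the CD150 tag. When the Flt3 tag was divided by that hashing tag and cells were ranked by the ratio into 4 equal groups, Flt3 RNA from the lowest to the highest group of WT cells was 96, 110, 123 and 142 CPM, and in IkBKO cells 44, 51.7, 49.7 and 63 CPM. Exact Poisson 95% intervals, for counting error only, were 90.4 to 102 and 134 to 149 CPM for the lowest and highest WT groups, and 40.8 to 47.3 and 59 to 67.1 CPM for those of IkBKO. Il7r measured 10.6, 15.8, 14 and 20.6 CPM in these groups of WT and 4.92, 5.82, 7.13 and 8.44 CPM in those of IkBKO cells, and Kit 193 to 203 CPM in WT and 103 to 127 CPM in IkBKO cells.

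**Figure D2:**
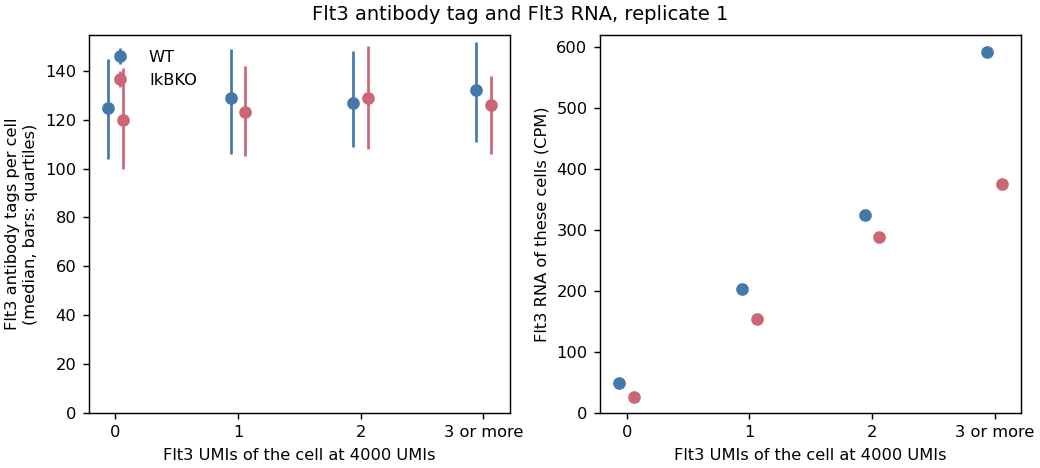
Flt3 antibody tags per cell (left; points are medians and bars the quartiles) and Flt3 RNA in CPM (right) for cells with 0, 1, 2 or at least 3 Flt3 UMIs at 4000 UMIs, WT in blue and IkBKO in red, replicate 1. The RNA climbs from 48.7 to 591 CPM in WT and from 25.4 to 376 CPM in IkBKO cells by construction, whereas the tag medians stay between 120 and 132.

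Csf1r (ENSMUSG00000024621, chromosome 18, 61100598 to 61132149, plus strand), the receptor of the monocyte growth factor, measured 10.4 CPM (WT) and 33.3 CPM (IkBKO) in replicate 1, then 3.39 and 10.6 CPM in replicate 2. The ratio was alike in both libraries, 3.19 and 3.13, although the libraries differed by about as much as the genotypes. The log2 fold change was 1.76 ± 0.10 (edgeR adjusted p = 0.0011). With 1 pool left out, in fits without the block, it ran from 0.58 (without IkBKO replicate 1) to 2.91 (without WT replicate 1). With the mixture of gates made equal the Csf1r value was 0.42 and no longer called (adjusted p = 0.61). For WT replicate 2 that fit scales up 30 cells in the Mpo gate alone, with 34 Csf1r UMIs, so the value rests in part on few cells. Markers of monocytes and dendritic cells rose with it. Of these, 6 of 8 were called higher and their summed level was 1840 and 1870 CPM for IkBKO against 496 and 368 CPM for WT. Without the cells that held over 0.5% of UMIs in the marker list of another cell type, the Csf1r value was 1.68 (adjusted p = 0.0012).

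Mpo-gated cells held 45.6% and 30.1% of its UMIs in WT and 86.5% and 40.9% in IkBKO pools, and Dntt-gated cells 22.1% and 36.4% in WT and 2.63% and 19.5% in IkBKO pools. Inside the Mpo gate the level was 27 and 48.4 CPM for WT against 51.7 and 24.7 CPM for IkBKO, so the libraries disagreed in direction (0.26 ± 0.61, edgeR adjusted p = 1). Summed monocyte and dendritic markers in the Mpo gate moved the same ways, from 809 to 1436 CPM in replicate 1 and from 1862 to 889 CPM in replicate 2. The 40 WT cells of replicate 2 also held 9042 CPM of mature neutrophil markers, against 298 to 834 CPM in the other pools, and 17.5% of them were above the share for another cell type's markers. In Mecom-gated cells Csf1r rose from 4.08 and 1.5 CPM to 9.46 and 4.15 CPM (1.36 ± 0.23, edgeR adjusted p = 0.0043). The value was 0.54 in cells of 1 gate only (adjusted p = 0.49), 0.29 with the threshold doubled (0.83) and 1.38 under DESeq2 (0.13). Monocyte and dendritic markers there summed to 249 and 345 CPM for WT against 971 and 793 CPM for IkBKO. Myeloid-primed markers summed to 1470 and 478 against 3615 and 1573 CPM, with 4 of 7 called higher, and the part of either list in the Csf1r result was not tested. In Dntt-gated cells it stood at 11.4 and 5.27 CPM for WT against 14.7 and 17.3 CPM for IkBKO (1.13 ± 0.28, edgeR adjusted p = 0.02; 0.43 under DESeq2). Summed monocyte and dendritic markers in the Dntt gate were 171 and 262 CPM for WT against 1126 and 606 CPM for IkBKO, and their part in the Csf1r result was not tested beyond leaving those cells out, which gave 1.17 (adjusted p = 7.9e-08).

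Csf2ra (ENSMUSG00000059326, chromosome 19, 61223957 to 61228429, minus strand), the chain that gives the GM-CSF receptor its ligand, measured 31.1 CPM (WT) and 37.8 CPM (IkBKO) in replicate 1, then 33.5 and 27.5 CPM in replicate 2. The libraries went opposite ways and the test was not passed (0.09 ± 0.17, edgeR adjusted p = 0.75). At fixed depth 10.7% to 12.1% of the cells of each pool had a UMI (23.2% to 33.7% at full depth). In Dntt-gated cells it was lower, at 15.8 and 20 CPM in IkBKO against 24.5 and 27.7 CPM in WT (-0.45 ± 0.15, edgeR adjusted p = 0.031), which DESeq2 did not call (adjusted p = 1). In the Mecom and Pf4 gates both IkBKO pools also lay under both WT pools, with values of -0.23 ± 0.10 and -0.36 ± 0.20 that did not pass.

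Both beta chains were higher in IkBKO cells. Csf2rb (ENSMUSG00000071713, chromosome 15, 78325752 to 78353847, plus strand), the signalling chain shared by the receptors of GM-CSF, IL-3 and IL-5, measured 27.2 CPM (WT) and 55.6 CPM (IkBKO) in replicate 1, then 15.9 and 29.9 CPM in replicate 2. Both IkBKO pools lay over both WT pools, though replicate 2 IkBKO only just exceeded replicate 1 WT. The log2 fold change was 1.07 ± 0.09 (edgeR adjusted p = 0.0029), and 0.88 (0.001) with the mixture of gates made equal. A Csf2rb UMI was found at fixed depth in 9.04% and 5.95% of WT and 19.5% and 11.6% of IkBKO cells (24.1%, 11.4%, 46.8% and 25.1% at full depth).

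Csf2rb2 (ENSMUSG00000071714, chromosome 15, 78282507 to 78305721, minus strand), its neighbour and near copy, measured 3.71 CPM (WT) and 11.6 CPM (IkBKO) in replicate 1, then 1.97 and 8.16 CPM in replicate 2. Here the groups were well apart, with ratios of 3.12 and 4.15. The log2 fold change was 1.93 ± 0.16 (edgeR adjusted p = 0.0028), and 2.19 (1.3e-04) with the mixture of gates made equal. With 1 pool left out, in fits without the block, the value ran from 1.47 (without WT replicate 2) to 2.51 (without WT replicate 1). With all 4 pools and no block it was 1.89 and not called (edgeR adjusted p = 0.33). The genes are close copies and share sequence, so the split of reads between them is uncertain. The sum of both was 30.9 and 17.9 CPM for WT against 67.1 and 38.1 CPM for IkBKO, and Csf2rb2 made up 12% and 11% of that sum in WT and 17.3% and 21.4% in IkBKO (exact binomial 95% intervals 10.3% to 13.9%, 8.88% to 13.5%, 16.1% to 18.4% and 19.8% to 23.1%, which cover counting error only).

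Within the gates, Csf2rb was called higher in 4 of 5. It stood at 27.1 and 15.9 CPM for WT against 54.7 and 27.4 CPM for IkBKO Mecom-gated cells (0.94 ± 0.11, edgeR adjusted p = 3.3e-04; 3.6e-04 under DESeq2). In Dntt-gated cells, the values of 23 and 16.3 against 32.7 and 19.2 CPM overlapped between genotypes (0.44 ± 0.15, edgeR adjusted p = 0.03; lost under DESeq2, at fixed depth, without the block, with genes of low counts kept, in cells of 1 gate and with the threshold doubled). In Pf4-gated cells it stood at 7.68 and 13.2 against 34.7 and 21.5 CPM (1.31 ± 0.28, edgeR adjusted p = 0.013), where fixed depth, 1 gate only and a doubled threshold kept the call and DESeq2 did not (adjusted p = 1).

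In Car1-gated cells the values of 4.1 and 5.12 against 23.4 and 6.32 CPM rested on 4 and 1 Csf2rb UMIs in WT (2.26 ± 0.63, edgeR adjusted p = 0.017). The call was lost in cells of 1 gate (1.75, adjusted p = 0.23) and with the threshold doubled (1.81, 0.34). The WT pools of that gate also differed in kind. Summed haemoglobin and other mature erythroid markers stood at 2672 and 2087 CPM for WT against 24.5 and 143 CPM for IkBKO. Without such cells the value was 2.89 (adjusted p = 0.0051). In the Mpo gate Csf2rb stood at 37.8 and 36 against 60.1 and 36.7 CPM and was not called (0.47 ± 0.20, edgeR adjusted p = 1). Csf2rb2 was higher in both libraries of the Mecom (3.61 and 2.12 against 9.25 and 5.92 CPM; 1.45 ± 0.22, edgeR adjusted p = 0.0018) and Dntt gates (3.27 and 1.93 against 8.85 and 3.94 CPM; 1.32 ± 0.34, edgeR adjusted p = 0.0029). DESeq2 called neither (adjusted p = 0.065 and 0.81). The cells in no gate, 30.2% to 46% of a pool, had the highest Csf2rb2 level of IkBKO cells, 25.3 and 15.5 CPM against 4.88 and 2.01 CPM in WT. Csf2rb2 there made up 27.8% and 28.6% of the beta chain sum in IkBKO and 15.2% and 11.6% in WT. This group was examined after the values were seen and was not tested.

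**Figure D3:**
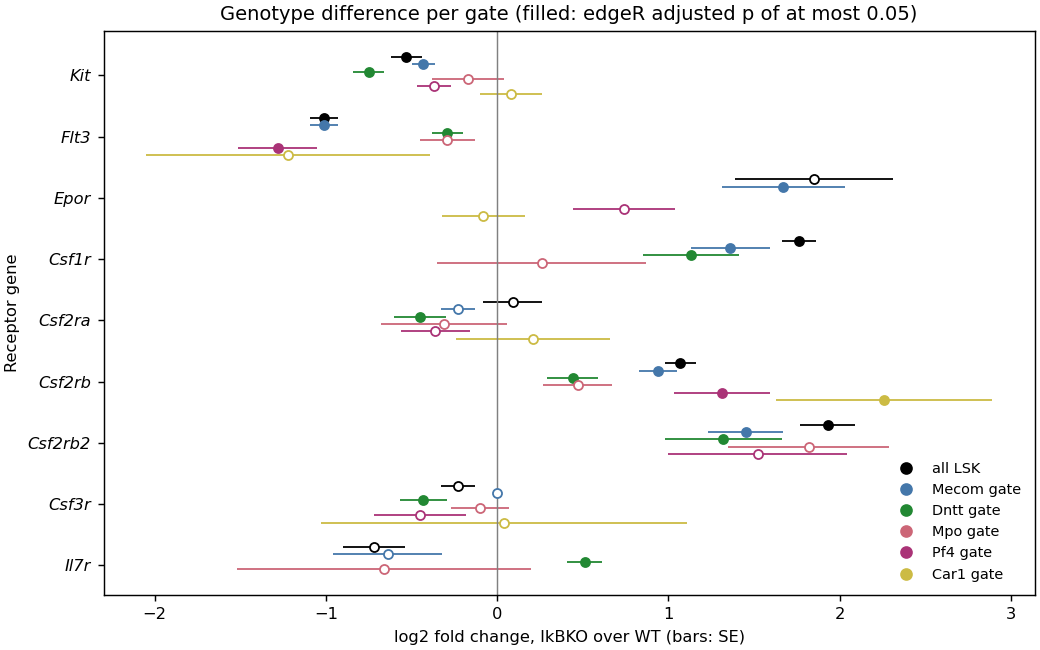
Log2 fold change of IkBKO over WT for each receptor gene over all LSK cells and in the 5 gates, with bars for the standard error; filled points passed the edgeR test and genes too low to be tested in a gate have no point. Csf2rb and Csf2rb2 lie right of 0 and Flt3 left of it in each fit that tested them, Kit lies near or left of 0, and Il7r lies left over all LSK cells and right in the Dntt gate.

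Csf3r (ENSMUSG00000028859, chromosome 4, 126024550 to 126044440, plus strand), the receptor of the neutrophil growth factor G-CSF, measured 42.1 CPM (WT) and 29.6 CPM (IkBKO) in replicate 1, then 35.3 and 32.0 CPM in replicate 2. Both IkBKO pools were lower, by less in replicate 2, and the test was not passed (-0.23 ± 0.10, edgeR adjusted p = 0.16). Mature neutrophil markers, whose own cells carry the receptor, were lower in IkBKO, with 4 of 8 called and summed levels of 1389 and 1190 CPM in WT against 189 and 209 CPM. Without cells of other types, which include neutrophils by these markers, the Csf3r value was -0.18 (edgeR adjusted p = 0.27). The part of these markers in the Csf3r values was not tested further. Csf3r was lower in Dntt-gated cells, at 33.1 and 30.1 CPM for WT against 21.7 and 22.3 CPM for IkBKO (-0.43 ± 0.14, edgeR adjusted p = 0.027; adjusted p = 1 under DESeq2). In Mecom-gated cells the libraries differed in direction, with 49.7 and 34.1 CPM for WT against 39.1 and 40.2 CPM for IkBKO (0.00, adjusted p = 1).

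Epor (ENSMUSG00000006235, chromosome 9, 21958897 to 21963506, minus strand), the erythropoietin receptor, measured 3.43 CPM (WT) and 6.72 CPM (IkBKO) in replicate 1, then 1.11 and 7.39 CPM in replicate 2. Both IkBKO pools were higher, but the ratio was 1.96 in replicate 1 and 6.63 in replicate 2, and edgeR did not call it (1.85 ± 0.46, adjusted p = 0.085). DESeq2 (adjusted p = 6.0e-05), edgeR on thinned cells (2.01, 6.2e-06) and edgeR without WT replicate 1 (2.82, 0.027) did, while its other alternatives gave adjusted p-values from 0.061 to 0.98. With the mixture of gates made equal the value was 0.59 (adjusted p = 0.061). For WT replicate 2 that fit scales up 7 cells in the Car1 gate alone, with 10 Epor UMIs, so this value too rests in part on few cells. In cells of no gate, a group examined after the values were seen and not tested, Epor was higher in both libraries, at 8.57 against 2.31 CPM and 2.82 against 0.888 CPM. Its UMIs came from Car1-gated cells to 44.7% and 23.4% in WT and 53.1% and 56.7% in IkBKO, and inside that gate the 4 pools lay between 54.2 and 68.6 CPM (-0.08 ± 0.24, edgeR adjusted p = 0.95). The WT pools of this gate carried the mature erythroid markers given above for Csf2rb, and without such cells the Epor value was 0.12 (adjusted p = 0.96).

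In Mecom-gated cells Epor was low but higher in IkBKO, at 4.2 and 5.04 CPM against 2.28 and 0.937 CPM (1.67 ± 0.36, edgeR adjusted p = 0.013). DESeq2 (adjusted p = 0.2) and the fit on cells in 1 gate only (1.35, adjusted p = 0.077) did not call it. At fixed depth 2.46% and 1.75% of these IkBKO cells and 0.642% and 0.482% of the WT cells had an Epor UMI (4.61%, 4.73%, 2.35% and 0.852% at full depth), against 0 of 746 and 0.106% of WT and 0 of 260 and 0.192% of IkBKO cells of the Dntt gate, where 0 allows up to 0.402% and 1.15% (0.134%, 0.312%, 0 and 0.19% at full depth). That gate should lack the receptor and was no shallower (median 8673 to 13114 UMIs per cell, against 7286 to 11085). In the Mecom gate erythroid-primed markers moved in both directions. Of 8, a list that includes Epor itself, 3 were called higher (Epor, Tfrc and Gata1) and 1 lower (Car2). Their sum was lower in IkBKO, at 431 and 742 CPM against 553 and 784 CPM for WT. Of 8 megakaryocyte-primed markers in that gate, 6 were called higher and 1 lower. Their sums were 354 and 325 CPM for WT against 490 and 527 CPM for IkBKO. The part of either list in the Epor result was not tested. Pf4-gated cells had 19.5 and 5.2 CPM for WT against 21.3 and 15.1 CPM for IkBKO (0.74 ± 0.30, edgeR adjusted p = 0.34), a value that was -0.18 without WT replicate 2.

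Il7r (ENSMUSG00000003882, chromosome 15, 9505788 to 9530176, minus strand), the alpha chain of the interleukin receptor that early lymphoid cells depend on, measured 15.2 CPM (WT) and 6.53 CPM (IkBKO) in replicate 1, then 23.2 and 17.0 CPM in replicate 2. Within each library IkBKO was lower, but the groups overlapped across libraries and edgeR did not call it (-0.72 ± 0.18, adjusted p = 0.07). It was called lower by DESeq2 (-0.71, adjusted p = 0.014), by edgeR on thinned cells (-0.57, 0.038) and by edgeR without cells of other types (-0.94, 0.031). Its other alternatives gave adjusted p-values from 0.059 to 1. The Dntt gate held 74.3% and 88.7% of its UMIs in WT and 79% and 74.2% in IkBKO. Inside that gate the direction was the opposite: 55.5 and 87.9 CPM for WT against 86.9 and 105 CPM for IkBKO, higher in 2 of 2 libraries (0.51 ± 0.10, edgeR adjusted p = 2.2e-05). The fits without the block (0.51, adjusted p = 0.31), with DESeq2 (0.52, 0.2) and at fixed depth (0.47, 0.071) gave a like size without a call, and that without WT replicate 1 gave 0.26 (0.6).

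At fixed depth 13.5% and 19.9% of WT and 22.3% and 25.1% of IkBKO Dntt-gated cells had an Il7r UMI (25.8%, 30.1%, 42% and 40.8% at full depth), against 0 of 339 and 0 of 40 WT cells (which allows up to 0.885% and 7.5%) and 0.0679% and 0.196% of IkBKO cells in the Mpo gate, whose cells were deeper (median 19454 to 22883 UMIs, against 8673 to 13114). At full depth the Mpo gate shares were 0.59%, 5%, 0.339% and 1.57%. Over all LSK cells with the mixture of gates made equal, the value was 0.25 (adjusted p = 0.15), the reverse of the plain sum. B cell markers rose in the Dntt gate alongside Il7r: 5 of 7 tested were called higher (Pax5, Igkc, Cd79a, Vpreb3 and Cd79b), with summed levels of 119 and 158 CPM for WT against 267 and 320 CPM for IkBKO. Without cells of other types, which include B cells by these markers, the Il7r value was 0.41 (adjusted p = 0.0014).

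**Figure D4:**
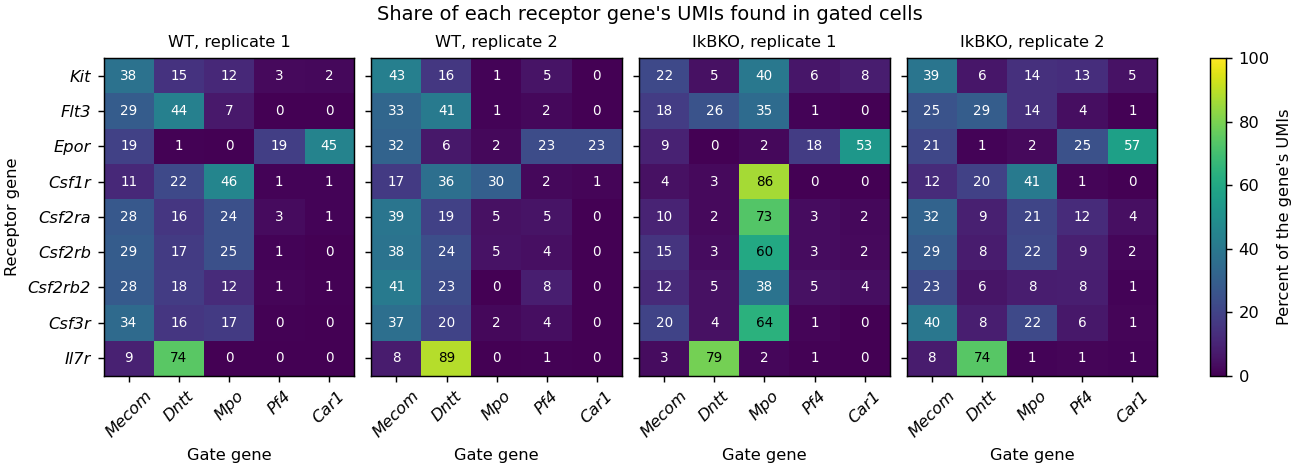
Percent of each receptor gene's UMIs that lay in cells of each gate, 1 panel per pool, from dark (0) to bright (100); gates overlap and some cells are in none. Il7r is concentrated in the Dntt gate of every pool, and for Csf1r, Csf2ra, Csf2rb and Csf3r the Mpo column is brightest in IkBKO replicate 1, where that gate held 37.2% of the cells.

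The counts by gate were as follows. In the Mecom gate, 4 receptor genes were called higher and 2 lower of 9 tested, against 10.6% of 12975 genes (6.20% higher, 4.37% lower). In the Dntt gate, 4 were higher and 4 lower of 8, against 12.8% of 11851 genes (6.81% higher, 5.95% lower), but DESeq2, fixed depth and the fit without the block each kept only Kit. In the Mpo gate, 0 of 8 were called by edgeR, against 0.302% of 11607 genes, with 2 of 8 at an unadjusted p under 0.05 (Csf2rb, 0.042, and Csf2rb2, 0.0039), as were 4.26% of all genes there, and 0 called by DESeq2. In the Pf4 gate, 2 of 7 were called, Csf2rb higher and Flt3 lower, against 1.46% of 10415 genes (0.730% in each direction), and in the Car1 gate 1 of 6, Csf2rb higher, against 3.46% of 9345 genes (1.79% higher). No receptor gene's genotype difference was shown to vary between the gates: 0 of 9 passed the edgeR interaction test, against 2.10% of 12354 genes, with 5 at an unadjusted p under 0.05 (Kit, Flt3, Epor, Csf2rb and Csf3r), as were 9.69% of all genes.

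Independently of genotype, the receptors divided between the gates. The fit used 20 pools of cells in exactly 1 gate and set each gate against the mean of the other 4. Flt3 was highest in the Dntt gate (log2 difference 3.63 ± 0.23, edgeR adjusted p = 2.2e-08) and also higher in the Mecom gate (1.57 ± 0.26), and lower in the Pf4 gate (-1.42 ± 0.41). Its Car1 pools held only 2 to 8 Flt3 UMIs. Where pools hold 0 or a few UMIs a fitted difference depends on the fit's prior count, so Il7r, Epor and Csf1r are given by their levels in the same pools, with no test. Il7r measured 61.3 and 109 CPM for WT and 101 and 125 CPM for IkBKO in the Dntt gate and at most 1.67 CPM in any pool of the other gates, which held 0 to 20 of its UMIs. Epor measured 60.3 to 74.8 CPM in the Car1 gate, 5.61 to 22.7 CPM in the Pf4 gate and 0.707 to 3.18 CPM in the Mecom gate, and had 0 or 1 UMI in each Dntt pool and 0 to 5 in each Mpo pool. The Car1 and Pf4 gates did not overlap in Epor in any pool of the gates as set, at 54.2 to 68.6 and 5.2 to 21.3 CPM.

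The myeloid receptors shared the Mpo gate to different degrees. Csf1r measured 27.8 to 54.8 CPM there, 5.43 to 17.1 CPM in the Dntt gate and 1.26 to 3.8 CPM in the Mecom gate, with 0 to 5 UMIs in each Pf4 and Car1 pool. Csf3r was higher in the Mpo (1.83 ± 0.17), Mecom (1.78 ± 0.16) and Dntt gates (0.91 ± 0.19), and its Mecom and Mpo levels, 34.1 to 49.7 and 34.0 to 40.1 CPM, overlapped. Csf2ra (1.28 ± 0.11) and Csf2rb (1.32 ± 0.14) were also higher in the Mpo gate. Kit was higher in the Mecom gate (0.77 ± 0.15, adjusted p = 7.3e-04) and lower in the Dntt gate (-0.48 ± 0.17, 0.041). Csf2rb2 was called only in the Car1 gate (-0.91 ± 0.35, adjusted p = 0.034). Its Car1 pools held 1 and 0 UMIs in WT and 24 and 1 in IkBKO, so that value also depends on the fit's prior count. In all, 27 of the 45 differences were called, some of them between pools of few UMIs. In the Mecom gate Kit, Flt3, Csf2rb and Csf3r were higher. In Dntt, Flt3, Csf1r, Csf3r and Il7r were higher and Kit, Epor and Csf2ra lower. In Mpo, Csf1r, Csf2ra, Csf2rb and Csf3r were higher and Epor and Il7r lower. In Pf4, Epor was higher and Flt3 and Csf3r lower. In Car1, Epor was higher and Flt3, Csf2ra, Csf2rb, Csf2rb2, Csf3r and Il7r lower. Of 12063 genes, 53.9%, 37.4%, 51.3%, 18.4% and 48.1% were called in the Mecom, Dntt, Mpo, Pf4 and Car1 gates. In the Mecom gate the receptors' share lay under that of all genes. By direction, the shares of all genes were 31.8% higher and 22.0% lower in the Mecom gate, 21.8% and 15.6% in Dntt, 25.6% and 25.7% in Mpo, 10.7% and 7.64% in Pf4, and 23.4% and 24.7% in Car1.

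**Figure D5:**
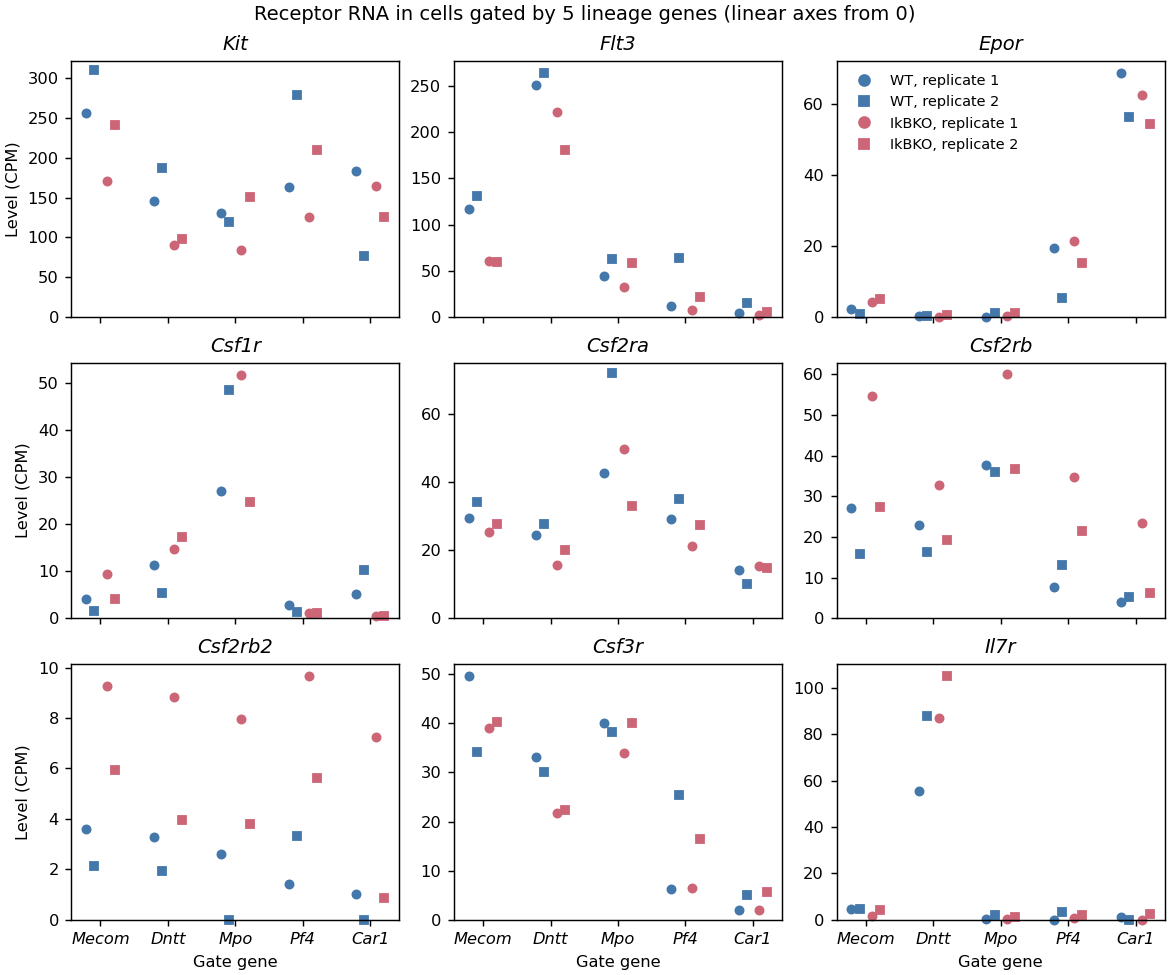
Level of each receptor gene in CPM, on linear axes from 0, in the cells of each gate; each point is 1 pool, blue for WT and red for IkBKO, circles for replicate 1 and squares for replicate 2. Epor rises in the Car1 gate (54.2 to 68.6 CPM) and Il7r in the Dntt gate (55.5 to 105 CPM), where both IkBKO points of Il7r lie over the WT point of the same library.

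Detection in the same cell, as shares at 4000 UMIs, followed these divisions for some pairs of receptors and not for others. Among cells with a Flt3 UMI, 0 of 1253 (which allows up to 0.239%) and 0.109% of WT and 0.136% and 0.166% of IkBKO cells had an Epor UMI, against 1.51%, 0.652%, 3.86% and 2.52% of cells without Flt3. An Il7r UMI was found in 5.91% and 7% of WT and 5.98% and 7.89% of IkBKO cells with Flt3, against 2.55%, 3.01%, 1.32% and 2.90% of those without. Kit went the other way with Il7r, at 2.33% and 2.72% of WT and 1.62% and 1.91% of IkBKO cells with Kit against 5.26%, 7.82%, 2.54% and 6.46% without. Csf2rb was found in 17.5% and 14.3% of WT and 32.2% and 28.2% of IkBKO cells with Csf2rb2 and in 8.89%, 5.87%, 18.7% and 11% without. Csf1r and Csf3r, both higher in the Mpo gate, showed no such link. A Csf1r UMI was found in 2.81% and 1.85% of WT and 8.33% and 2.08% of IkBKO cells with Csf3r. In cells without Csf3r the shares were 2.9%, 1.02%, 8.74% and 3.17%. Cells with none of the 9 receptors made up 19.3% and 14% of WT and 26.3% and 22.2% of IkBKO cells.

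By their levels over the 20 gate pools (Pearson correlation of log2(CPM + 10), among 5705 genes of at least 20 CPM, as a description with no test), the genes most like Flt3 were Notch1 (0.96), Satb1 (0.95) and Lsp1 (0.94). Epor was most like Aqp1 (0.99), Smim1 (0.99) and Tango2 (0.98), and Il7r like Cox6a2 (0.98), Ctr9 (0.97) and Ly6d (0.95). Csf3r was most like Fam107b (0.96), Csf1r like Erp29 (0.94), Kit like Wbp2 (0.92) and Csf2ra like Hexa (0.91). The beta chains had other neighbours, Csf2rb with H2-DMb1 (0.84) and Casp1 (0.84), and Csf2rb2 with Tapbpl (0.86), Wdfy1 (0.84) and Tap1 (0.84). Among the receptors themselves the highest correlations were 0.75 for Flt3 with Il7r and 0.70 for the pair of beta chains, and the lowest was -0.92 for Epor with Csf3r. Pools of a gate share cells' origin and library, so these points are not independent.

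Genes of the wider pathway were taken from 6 lists and tested over all LSK cells. The counts called are to be read beside the 13.3% of all 14742 genes called there (7.13% higher, 6.19% lower). Of 11 ligands, 4 were high enough to test, and Tslp, which signals through Il7r with Crlf2, was called higher, at 4.95 and 5.34 CPM for WT against 7.26 and 7.78 CPM for IkBKO (0.64 ± 0.14, edgeR adjusted p = 0.035). Epo, Il34 and Il3 had no UMI in any pool. Of 10 partner and related chains, 3 were higher and 2 lower. Il6st, the shared chain of the IL-6 family, stood at 14.4 and 13.5 CPM for WT against 28.3 and 26 CPM for IkBKO (1.05 ± 0.08, edgeR adjusted p = 0.0027). Il6ra and Il5ra were also called higher, and Pdgfrb was called lower (-0.39 ± 0.08, adjusted p = 0.033). The median log2 fold changes of these lists were 0.11 and 0.28, against -0.01 over all genes.

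Of 9 JAK and STAT genes, 2 were higher and 1 lower. Jak2, the kinase of Epor and the beta chains, was higher (23.6 and 30.5 against 28.7 and 41.2 CPM; 0.45 ± 0.08, edgeR adjusted p = 0.023). Jak1, which serves Il7r, was lower (124 and 163 against 82.9 and 127 CPM; -0.38 ± 0.08, adjusted p = 0.038). Of 16 adaptors and kinases 1 was higher and 1, Pik3r1, lower (-0.43 ± 0.08, edgeR adjusted p = 0.024), near the 13.3% called over all genes. Of 15 inhibitors of receptor signalling, Socs2 (0.94 ± 0.12, edgeR adjusted p = 0.0094) and Socs3 were higher and Dusp6 (-1.11 ± 0.09, 0.0028), Dok2 and Spred1 lower, with no common direction in the list. Of 20 transcription factors linked to receptor genes, Irf8 (1.23 ± 0.13, edgeR adjusted p = 0.0085) and Cebpa were higher and Satb1 (-1.18 ± 0.08, 0.002), Hoxa9, Notch1 and Meis1 lower. Spi1, which encodes PU.1, was not called (0.38, adjusted p = 0.12). The differences of Dusp6, Satb1 and Hoxa9 varied between the gates in the interaction test. The medians of these 4 lists lay between -0.06 and 0.05.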

How the data were processed

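The deposited files hold raw UMI counts per gene and cell barcode, written by Cell Ranger 6.0.0 per the file headers; the submitters' processing notes name Cell Ranger 7.0, Seurat 4.3.0 and mm10. The authors also deposited a cell table with each barcode's quality call and genotype, and the 7683 of 9322 and 10346 of 24787 barcodes that passed it were used. No doublet caller was run here; doublets were handled only by that call. Counts were summed per library and genotype over all cells and within each gate, and tested on all genes with edgeR 4.0.16 (quasi-likelihood, robust, TMM scaling, filterByExpr, two-sided, R 4.3.3), with the library as a block and Benjamini-Hochberg adjustment; 1 residual degree of freedom remained. Both genotypes of a replicate shared a droplet library, and their deviations correlated at 0.69 over 14742 genes, so the replicate numbers pair the samples. The interaction and the gate levels were fitted on 20 pools of cells in exactly 1 gate. Shares were taken after thinning each cell to 4000 UMIs, which left out 80 and 359 WT and 41 and 211 IkBKO cells. Shares within a gate kept the gates on raw UMIs. Fits within gates at fixed depth used other cells, gated again on thinned UMIs. Those thresholds were at least 1 for Mecom, 2 for Dntt, 8 for Mpo, 2 for Pf4 and 2 for Car1.

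On simulated counts over all LSK cells (14554 genes tested), 47.6%, 69.6% and 87.5% of genes changed by 1.5-, 2- and 4-fold were called, and 0.139% of unchanged genes. In the Mecom, Dntt, Mpo, Pf4 and Car1 gates, 70%, 49.2%, 14.3%, 37.3% and 4.7% of genes changed 1.5-fold were called. For 2-fold changes these shares were 89.9%, 77%, 49.2%, 79.5% and 51.7%. A gene not called in the Mpo or Car1 gate is thus not shown to be unchanged. The alternatives were DESeq2 1.42.0, RLE scaling, no filter, no block, thinned cells, removal of cells with over 0.5% of UMIs in another cell type's markers, equal gate composition, cells in 1 gate, doubled gate thresholds and each pool left out. Unthinned shares were added after the data were seen. The members and lists were chosen with earlier results of these data known. All 9 members are named, with up to 4 genes per pathway list by smallest p and the 3 genes most like each member (the first of them for some); Il5ra, Spred1, Cebpa, Meis1 and Spi1 were named after their values were seen. Some members of the lists are counted but not reported by name here. Promoter sequences come from RefSeq, which gave a window for 7 of the 9 genes.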

Additional observations from a re-analysis of the deposited data

Results flagged for a closer look

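The genotype difference of 3 pathway genes named in the report varied between the gates in edgeR's interaction test over 20 pools. The fold changes below come from the separate fit of each gate as set, with overlapping cells, and not from those 20 pools. Dusp6, a phosphatase that acts on ERK (adjusted p = 0.0049), had log2 fold changes of -1.04 ± 0.12, -0.29 ± 0.15, -1.24 ± 0.32, -0.72 ± 0.29 and 1.01 ± 0.66 in the Mecom, Dntt, Mpo, Pf4 and Car1 gates. Of these only the Mecom value was called (edgeR adjusted p = 4.5e-04), and the Car1 value was not (0.58). Satb1, a chromatin organiser of lymphoid progenitors (adjusted p = 0.0053), had -1.22 ± 0.08, -0.38 ± 0.09, -0.48 ± 0.18, -1.51 ± 0.24 and -1.56 ± 0.58. Hoxa9, a homeobox factor of immature cells (adjusted p = 0.015), had -0.62 ± 0.08, -0.87 ± 0.10, -0.19 ± 0.17, -0.42 ± 0.17 and 0.15 ± 0.36.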

How the results depend on the processing

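With 4 pools and 1 residual degree of freedom, few settings keep every call. Of the receptor genes, 5, 6, 8, 0, 2 and 1 were called over all LSK cells and in the Mecom, Dntt, Mpo, Pf4 and Car1 gates. Without the replicate block, which ignores the pairing by library, these became 0, 1, 1, 0, 0 and 0, and the Car1 gate value of Kit was -0.02. Over all LSK cells DESeq2 and thinned cells each called 7, the fit without other cell types 6 and equal gate composition 4. DESeq2 called 3, 1, 0 and 0 in the Mecom, Dntt, Pf4 and Car1 gates. Thinned cells gave 1, 1 and 0 calls in the Dntt, Pf4 and Car1 gates (Csf2rb, the Car1 call, gave no value under DESeq2 or thinning), cells in exactly 1 gate 4, 1 and 0, and doubled thresholds 3 in the Dntt and 0 in the Car1 gate. Without the filter 1 gene was called in the Mpo gate (Csf2rb2) and 2 in the interaction (Kit and Flt3). Leaving out 1 pool at a time, in fits without the block in which a lone pool is taken to vary like the others, gave 0 to 2 calls in LSK, Mecom and Dntt, 0 to 1 in Mpo and Car1 and 0 in Pf4. The cause of these losses was not tested, and the shares of all genes called under the alternative settings are not given here.

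Values that changed direction, none of them called under both settings, were as follows. Over all LSK cells, equal gate composition gave Csf2ra -0.33, Il7r 0.25, Il7 0.33 and Jak3 0.01. Thinning gave Il7 0.31, and by gate Csf2ra 0.04 and Csf3r 0.25 (Mecom), Flt3 0.24 (Mpo) and Epor 0.33 (Car1); in the gate levels it gave Csf2rb -0.02 (Dntt) and Csf3r 0.06 (Pf4). RLE scaling gave Csf3r 0.00 in the Mecom gate and gate levels of 0.05 for Epor (Mecom) and -0.01 for Kit (Car1), and no filter a gate level of 0.00 for Csf2ra (Mecom). Without other cell types Csf3r was 0.02 (Mecom) and 0.04 (Mpo), Kit -0.01 and Epor 0.12 (Car1). In cells of 1 gate Csf3r was 0.02 and Il7r 0.74 (Mecom), Flt3 0.28 (Mpo) and Csf2ra -0.12 (Car1). Doubled thresholds gave Csf3r 0.02 and Il7r 0.37 (Mecom), Kit 0.02 and Flt3 0.04 (Mpo). With 1 pool left out, LSK values ran from -0.24 to 0.42 for Csf2ra, -0.64 to 0.33 for Il7 and -0.07 to 0.13 for Csf1, and Csf3r in Mecom from -0.33 to 0.30. In the Mpo gate they ran from -0.49 to 0.20 for Kit, -0.57 to 0.12 for Flt3, -0.51 to 0.70 for Csf1r, -0.09 to 0.77 for Csf2rb, -0.14 to 0.02 for Csf3r and -1.94 to 1.05 for Il7r. In Pf4 they ran from -2.15 to 0.34 for Flt3, -0.18 to 1.89 for Epor and -1.20 to 0.87 for Csf3r, and in Car1 from -0.37 to 1.02 for Kit, -0.34 to 0.16 for Epor and -0.29 to 0.89 for Csf3r. Over all LSK cells, shares without thinning were larger for each of the 9 genes in both genotypes.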
